A study of Mus musculus with 16 samples.

Results

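The sites described here are the places where Oct4 and Sox2 were mapped together, and apart, in mouse fibroblasts on day 1 of reprogramming with Oct4, Sox2 and Klf4 (Oct4-SK). Each factor's sites were the summits, the single bases of highest signal, that the authors called in its ChIP-seq library. A summit was called co-bound when a summit of the other factor lay within 100 bp, and otherwise Oct4-alone or Sox2-alone, on chromosomes 1 to 19, X and Y. By this rule 1628 of 8199 Oct4 summits were co-bound, 19.9% (95% Wilson interval 19.0 to 20.7), and 6571 were Oct4-alone. Of 15219 Sox2 summits 1623 were co-bound, 10.7% (10.2 to 11.2), and 13596 were Sox2-alone. The co-bound summits formed 1623 pairs in which each was the nearest of the other factor, within 23418 summits of both lists and 204171 summits of the 12 lists used here. "Alone" means only that the other factor had no called summit nearby.

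The study followed how Oct4, its relative Oct6 and a mutant Oct4 (Oct4defSox2, made to lose the partnership with Sox2 on composite DNA elements) bind while fibroblasts are reprogrammed. The cells were OG2-MEFs, embryonic fibroblasts with a GFP reporter under Oct4 regulatory DNA, given pMX retroviruses for Sox2, Klf4 and Oct4, and day 0 was the switch to the defined iCD1 medium. Oct4 was precipitated with the Santa Cruz sc-8628 X antibody and Sox2 with an antibody of Cell Signaling, from unsorted transduced cells. In the comparison cultures Oct4defSox2, Oct6 or the Oct4 point mutant S151M took the place of Oct4. Every combination of factor, cocktail and day was 1 library, so no p-value is given: intervals are 95%, cover counting error only, and compare libraries rather than conditions. The summit lists carry no read numbers, and sequencing depth was not used here.

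Oct4 is a POU-family factor whose paired DNA-binding domains read an octamer, and Sox2 is an HMG-box factor that bends DNA at a short T-rich core. On the composite SoxOct element the Sox core and the octamer lie side by side and the factors sit next to each other, an arrangement known from enhancers of pluripotency genes. POU factors can also pair with themselves on the palindromic MORE element, without a Sox partner. AP-1 factors, the Fos and Jun family, mark enhancers that are active in fibroblasts.

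The motifs searched, on both strands of 201 bp around each summit, were the octamer ATGCAAAT without mismatch, SoxOct with up to 2 mismatches (an exact one contains the octamer), MORE with or without 1 extra base in its middle and with up to 1 mismatch, a single Sox site (CCATTGT or CCTTTGT followed by C, G or T), AP-1 (TGACTCA or TGAGTCA) and a KLF box (the 4 forms GGGCGGGGC, GGGCGTGGC, GGGTGGGGC and GGGTGTGGC). The first co-bound windows show SoxOct at different strengths, the plus strand of GRCm38 with motif matches in capitals. The first lies 1975 bp upstream of Pou5f1, the gene of Oct4 itself, where the distal enhancer is known to lie. The next are 6642 bp downstream of the start of Sox21, a neural Sox gene, 71 bp upstream of Gadd45g, a stress-response gene (cut before the transcript begins), and 18351 bp upstream of Klf13.

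Pou5f1 upstream, chr17:35503943-35504143: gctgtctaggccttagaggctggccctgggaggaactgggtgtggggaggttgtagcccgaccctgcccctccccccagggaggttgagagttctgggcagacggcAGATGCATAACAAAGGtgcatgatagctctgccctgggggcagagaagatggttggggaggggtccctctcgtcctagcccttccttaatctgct

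Sox21, chr14:118230288-118230488: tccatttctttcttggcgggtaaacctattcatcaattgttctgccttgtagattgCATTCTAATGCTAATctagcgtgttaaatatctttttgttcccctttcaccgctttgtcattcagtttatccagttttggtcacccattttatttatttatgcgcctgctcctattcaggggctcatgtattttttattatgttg

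Gadd45g, chr13:51846507-51846677: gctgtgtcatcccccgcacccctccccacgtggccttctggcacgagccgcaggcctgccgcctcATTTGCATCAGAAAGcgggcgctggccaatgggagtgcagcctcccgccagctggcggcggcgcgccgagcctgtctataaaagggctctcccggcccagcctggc

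Klf13, chr7:63957166-63957366: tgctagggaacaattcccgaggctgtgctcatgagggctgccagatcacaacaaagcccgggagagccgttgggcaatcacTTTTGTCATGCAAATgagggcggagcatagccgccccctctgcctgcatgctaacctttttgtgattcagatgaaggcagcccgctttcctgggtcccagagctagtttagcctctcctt

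SoxOct had 2 mismatches at Pou5f1, where it overlaps a single Sox site on the minus strand, 1 at Sox21, 0 at Gadd45g and 1 at Klf13. The next pair of windows shows co-binding without SoxOct. The window in an intron of Pde4d, a cAMP phosphodiesterase, holds a single Sox site and a separate octamer, and that in an intron of Klf12 holds a MORE without mismatch.

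Pde4d, chr13:109592931-109593131: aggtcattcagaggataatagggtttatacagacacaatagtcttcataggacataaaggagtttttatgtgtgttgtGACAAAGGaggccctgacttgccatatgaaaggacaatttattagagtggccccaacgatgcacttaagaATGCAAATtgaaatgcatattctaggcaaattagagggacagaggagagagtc

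Klf12, chr14:100117805-100118005: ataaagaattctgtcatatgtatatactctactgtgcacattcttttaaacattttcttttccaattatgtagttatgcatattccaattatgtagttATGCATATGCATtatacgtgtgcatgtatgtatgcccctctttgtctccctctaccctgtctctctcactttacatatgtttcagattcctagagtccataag

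For contrast, 2 of the 4 highest-scoring Oct4-alone windows are shown. That in an intron of Sort1, a sorting receptor gene, holds 4 MORE matches in sequence that is 99.5% repeat-masked, and that in an intron of Nr1h4, the bile acid receptor gene, holds a SoxOct with 2 mismatches that ends in an exact octamer.

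Sort1, chr3:108304757-108304957: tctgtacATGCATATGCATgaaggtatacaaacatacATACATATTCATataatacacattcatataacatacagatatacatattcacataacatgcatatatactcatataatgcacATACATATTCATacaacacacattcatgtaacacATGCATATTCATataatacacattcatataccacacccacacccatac

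Nr1h4, chr10:89487409-89487609: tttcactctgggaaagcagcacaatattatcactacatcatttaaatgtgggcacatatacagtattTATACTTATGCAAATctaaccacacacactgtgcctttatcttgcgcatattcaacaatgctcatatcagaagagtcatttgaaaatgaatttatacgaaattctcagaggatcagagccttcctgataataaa

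Within the 100 bp that the rule allows, the median distance of the 1623 pairs was 42 bp (41 to 45), with quartiles at 22 and 66 bp. Of these, 6 pairs shared a base, 201 pairs (12.4%, 10.9 to 14.1) lay within 10 bp, and 941 (58.0%, 55.6 to 60.4) within 50 bp. By content of the window, and under the same cap, the median was 42 bp (37 to 48) with SoxOct, 50 bp (35 to 66) with MORE, 42 bp (40 to 45) with no POU motif, 51 bp (44 to 55) with AP-1 and 37 bp (26 to 50) at promoters. In genome orientation the Sox2 summit lay to the right in 830 pairs and to the left in 787.

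The density of summit pairs was level up to 60 bp and then fell steeply. Densities are per 1000 bases, with bases to both sides of the Oct4 summit counted. They were 9571 pairs at up to 10 bp and 9150 at 51 to 60 bp, 5800 at 91 to 100 bp, 1190 between 200 and 300 bp and 75.5 between 5000 and 10000 bp. The limit of 100 bp cut through this slope: 116 Oct4 summits had Sox2 at 91 to 100 bp and 78 in the next 10 bp, with median scores of 11.8 and 11.9. Within 250 bp 722 more Oct4 summits would have counted. At the other end, 4655 Oct4 summits (56.8%) and 11419 Sox2 summits (75%) lay over 10000 bp from any summit of the other factor.

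**Figure D1:**
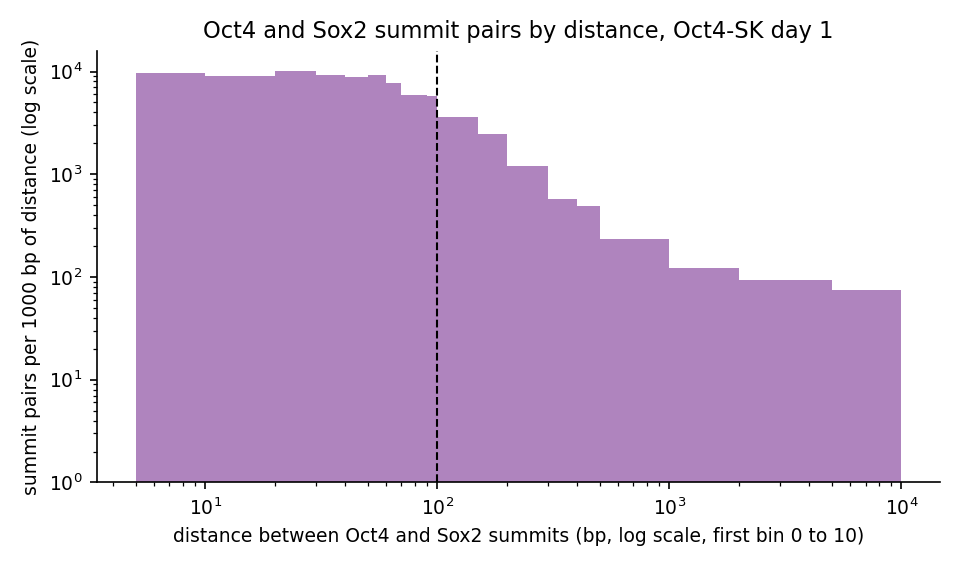
Number of Oct4 and Sox2 summit pairs per 1000 bases (log scale) against the distance between them in bp (log scale), Oct4-SK day 1, with a dashed line at the 100 bp limit. The bases on the vertical axis are counted to both sides of the Oct4 summit. The density is level to 60 bp and falls from 5800 at 91 to 100 bp to 75.5 between 5000 and 10000 bp.

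A score here is the −log10 p-value of the summit, which ranks summits within 1 library. The lowest scores were 4.00 in the Oct4 list and 4.02 in the Sox2 list, so scores near these are marginal calls. Co-bound Oct4 summits had a median score of 12.5 (11.8 to 13.1) and Oct4-alone summits 10.9 (10.7 to 11.3). Co-bound Sox2 summits had a median of 11.6 (11.3 to 11.6) and Sox2-alone summits 7.66 (7.66 to 7.66), where many summits share the same score. A co-bound Sox2 summit sat at the median percentile 81.2 of its list, and a co-bound Oct4 summit at 57.6.

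The share of Sox2 summits that were co-bound rose from 1.84% (1.28 to 2.65) in the lowest score decile to 32.9% (30.5 to 35.3) in the highest. For Oct4 it was 15.2% (12.9 to 17.9) in the lowest and 27.2% (24.3 to 30.3) in the highest decile, with 15.3% still in the sixth, and the strongest Oct4 summit of all, in Kremen1 at 311, was Oct4-alone. Within pairs the scores of both factors were only loosely related, with Spearman's rho 0.159 over 1623 pairs of the same cells. In 1133 pairs the Sox2 summit had the higher percentile and in 490 the Oct4 summit, and 105 pairs were in the top decile of both lists.

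**Figure D2:**
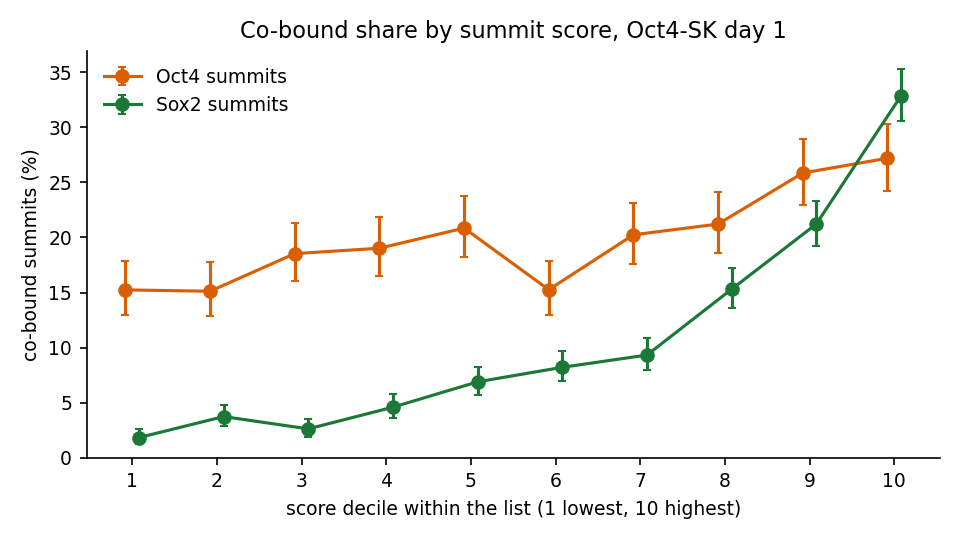
Co-bound summits in percent for each score decile of the Oct4 list and the Sox2 list of Oct4-SK day 1, with 95% Wilson intervals as bars. The Sox2 share climbs from 1.84% to 32.9%, the Oct4 share from 15.2% to 27.2%.

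Co-bound sites held SoxOct more often than Sox2-alone sites, and held single Sox sites more often and MORE less often than Oct4-alone sites. Co-bound Sox2 summits were chosen by a nearby Oct4 summit, so more POU motifs than at Sox2-alone sites follow from the rule. The same holds for single Sox sites against Oct4-alone sites. These differences are description and not a test of co-binding. Around co-bound Sox2 summits 15.3% (13.7 to 17.2) of windows held SoxOct, against 2.83% (2.57 to 3.12) around Sox2-alone summits, a difference of 12.5 percentage points (10.8 to 14.4). Around Oct4 summits it was 17% (15.2 to 18.9) when co-bound and 14.6% (13.8 to 15.5) when Oct4-alone, a difference of 2.34 points (0.392 to 4.42). Windows 2 kb to each side held SoxOct in 1.04% and 1.10% of cases. Put from the motif's side, 249 of 634 Sox2 summits with SoxOct were co-bound (39.3%, 35.5 to 43.1), and 276 of 1236 Oct4 summits with SoxOct (22.3%, 20.1 to 24.7).

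The small SoxOct excess over Oct4-alone stood in the highest scores. In the top score quintile of Oct4 the shares were 25.7% (21.9 to 30.1) co-bound and 18.4% (16.3 to 20.7) Oct4-alone, while in the bottom quintile they were 8.84% (5.91 to 13) and 9.63% (8.19 to 11.3). The interval of the difference took in 0 when Oct4-alone summits were weighted to the scores of the co-bound ones, here called equal scores (1.68 points), with up to 1 mismatch (0.387 points) and with the limit at 50 bp (2.42 points) or 250 bp (0.283 points).

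MORE, the element of POU homodimers, was less frequent at co-bound than at Oct4-alone sites. It stood in 5.16% (4.19 to 6.34) of co-bound and 11.8% (11 to 12.6) of Oct4-alone windows, a difference of -6.60 points (-7.86 to -5.20), with 0.860% and 0.837% in the flanks. In the top score quintile the shares were 8.51% (6.23 to 11.5) and 22.7% (20.5 to 25.2). Of 857 Oct4 summits with MORE, 84 were co-bound, 9.80% (7.99 to 12). The low share reached past the 100 bp limit, with 5.12% (3.74 to 6.98) of 722 Oct4 summits that had Sox2 beyond 100 and up to 250 bp, and returned to 12.9% (12 to 13.8) beyond 1000 bp. The exact octamer stood in 7.92% and 8.61% of the Oct4 windows (difference -0.690 points, -2.09 to 0.868). Around Sox2 summits both motifs were more frequent when co-bound, as SoxOct was: MORE stood in 4.31% of co-bound and 0.890% of Sox2-alone windows (3.42 points, 2.52 to 4.53), and the octamer in 7.09% and 2.47% (4.61 points, 3.43 to 5.99).

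Single Sox sites were more frequent where both factors were mapped. Around Oct4 summits they stood in 19.5% (17.6 to 21.5) of co-bound and 10.4% (9.65 to 11.1) of Oct4-alone windows, a difference of 9.11 points (7.11 to 11.2), against 6.27% and 5.94% in the flanks. Around Sox2 summits they stood in 21.6% (19.7 to 23.7) of co-bound and 15.1% (14.5 to 15.7) of Sox2-alone windows, a difference of 6.57 points (4.54 to 8.72). The Sox2 difference did not hold with score: among summits of at least 10 it was -2.20 points (-5.42 to 1.29).

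AP-1 is the fibroblast enhancer motif. It stood in 12.2% of co-bound and 11.1% of Oct4-alone windows (difference 1.07 points, -0.623 to 2.90), and in 11.5% and 9.57% of co-bound and Sox2-alone windows around Sox2 summits (1.95 points, 0.405 to 3.67). The latter difference became -0.839 points (-2.59 to 0.917) at equal scores and -3.34 points (-5.72 to -0.606) among summits with scores of at least 10, a turn in direction. The KLF box stood in 1.29% and 1.46% of Oct4 windows and in 1.23% and 1.30% of Sox2 windows, with 0.706% and 0.845% in the flanks of the Oct4 windows. In 1200 of the 1628 co-bound Oct4 windows (73.7%, 71.5 to 75.8) there was no SoxOct, MORE or octamer by these definitions, against 69.6% of Oct4-alone windows.

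**Figure D3:**
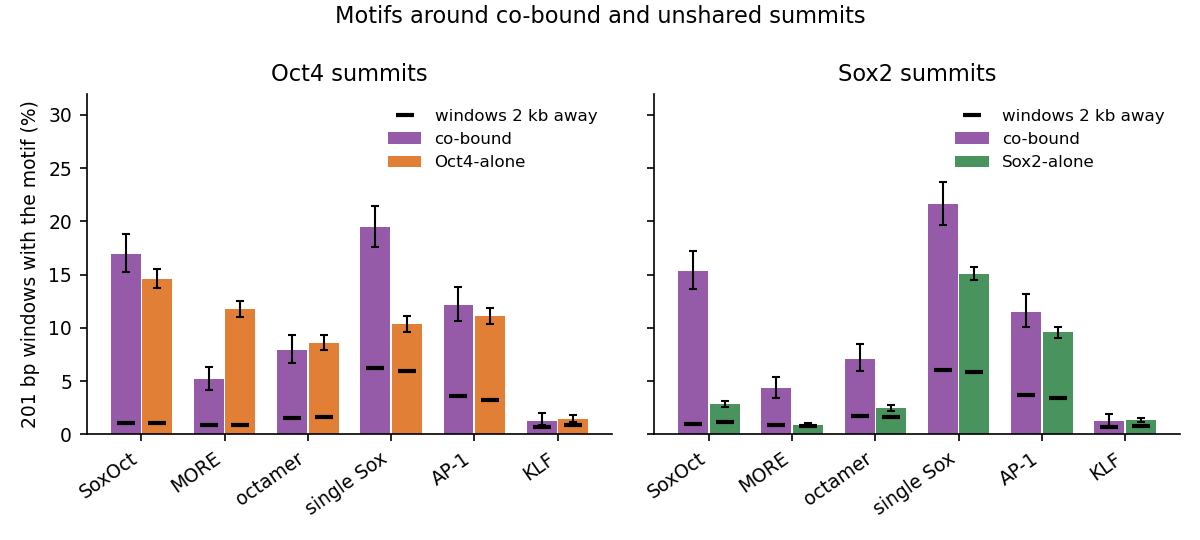
Share of 201 bp windows with each motif around Oct4 summits (left) and Sox2 summits (right), co-bound or alone, with 95% Wilson intervals as bars and the share in windows 2 kb away as black dashes. SoxOct stands in 15.3% of co-bound against 2.83% of Sox2-alone windows, and MORE in 5.16% of co-bound against 11.8% of Oct4-alone windows.

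SoxOct lay nearer to the Oct4 summits than to the Sox2 summits, when each factor's own windows were searched. Co-bound Oct4 summits lay at a median of 24 bp (20 to 30) from the motif's centre over 276 windows, and co-bound Sox2 summits at 41 bp (33 to 46) over 249 windows. Oct4-alone summits lay at 23 bp (21 to 25) over 960 windows and Sox2-alone summits at 46 bp (41 to 50) over 385. A window caps these distances at under 100 bp. A match placed at random would have a median near the middle of that range, where the Sox2-alone median stands. For the 276 matches found around co-bound Oct4 summits, the Sox2 summit of the same pair, to which no such cap applied, lay at a median of 46.5 bp. Neither summit leaned to a side: read along the motif from its Sox end to the octamer, the Oct4 summit lay at a median of 2.5 bp (-2 to 9) and the Sox2 summit at 8 bp (-2 to 19). The Sox2 summit lay before the Oct4 summit in 140 of these pairs and after it in 134. In these matches the second base (A or T) was mismatched in 1.09% and the T bases at motif positions 3, 4 and 9 in 5.43% each, while the last base was mismatched in 24.3%.

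**Figure D4:**
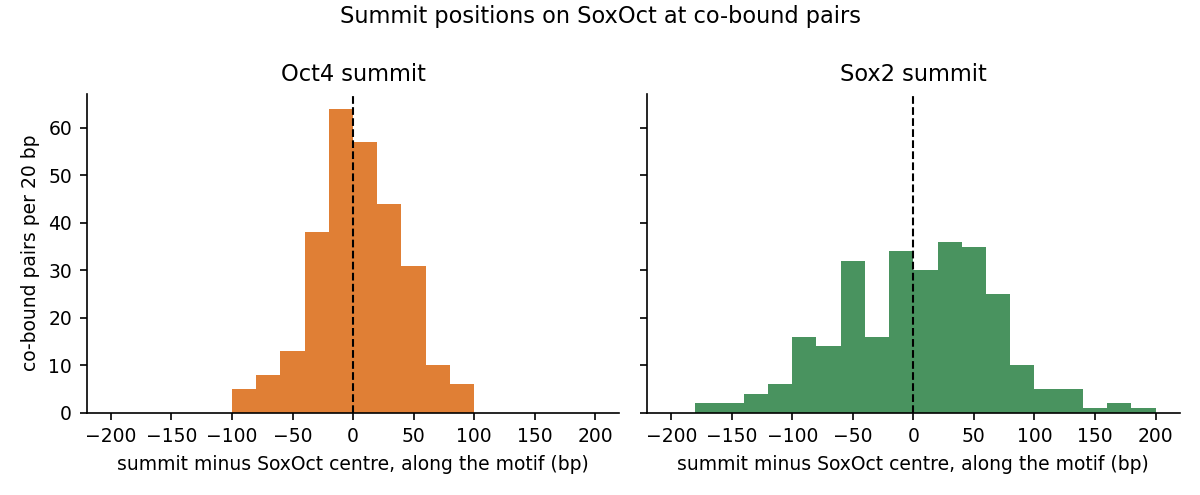
Position of the Oct4 summit (left) and the Sox2 summit (right) relative to the centre of SoxOct, in bp along the motif from its Sox end to the octamer, for the 276 co-bound pairs with a match, in bins of 20 bp. Oct4 summits have a median distance of 24 bp and Sox2 summits of 46.5 bp, where the matches were searched around the Oct4 summit, which caps its distance and not that of Sox2.

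Other fixed arrangements of the separate Sox and octamer sites were looked for with an exact Sox core and an octamer of up to 1 mismatch, in 4 relative orientations and with 0 to 30 bases between them. The canonical arrangement, same strand with the Sox core first and 1 base between, was the most frequent, in 12 of 1628 co-bound Oct4 windows (0.737%, 0.422 to 1.28) and in 55 of 6571 Oct4-alone windows (0.837%, 0.644 to 1.09). The highest of the other 123 arrangements reached 7 co-bound windows (0.430%, 0.208 to 0.885), and the interval of the canonical share overlaps it. In Oct4-alone windows the highest other arrangement reached 17 (0.259%, 0.162 to 0.414), below the interval of the canonical share. Around co-bound Sox2 summits the canonical arrangement stood in 10 of 1623 windows and the next in 9. Around Sox2-alone summits another led, opposite strands with the octamer first and 16 bases between, in 19 of 13596 windows.

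Co-bound sites lay farther from the starts of coding genes than sites of either factor alone. The median distance to the nearest start of a coding gene was 78938 bp (72375 to 86488) for co-bound Oct4 summits, 55834 bp (53188 to 59156) for Oct4-alone and 62804.5 bp (59966 to 64996) for Sox2-alone summits. Within 1 kb of any start lay 3.38% (2.60 to 4.37) of co-bound and 5.55% (5.03 to 6.13) of Oct4-alone summits, a difference of -2.18 points (-3.14 to -1.05). Against Sox2-alone summits, at 6.35% (5.95 to 6.77), the difference was -3.08 points (-3.95 to -2.02). The interval against Oct4-alone took in 0 with the limit at 50 bp (-1.47 points) and with scores of at least 10 (-1.52 points).

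Of the 1628 co-bound Oct4 summits 781 were intergenic, 753 intronic, 55 at promoters, 20 in UTRs, 10 in non-coding exons and 9 in coding exons. The intergenic share of 48.0% exceeded that of Oct4-alone by 4.60 points (1.90 to 7.31). Windows were AT-rich, with a median GC content of 37.3% when co-bound, 38.3% for Oct4-alone and 39.3% for Sox2-alone. Windows made mostly of repeats (over 50% of bases) were fewer among co-bound Oct4 sites, 7.31% (6.14 to 8.68) against 13% (12.2 to 13.9). By chromosome the co-bound share of Oct4 summits ran from 11.9% on X to 22.7% on chromosome 1.

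The 8 pairs that ranked highest in both lists were led by the Pde4d intron on chromosome 13, with an Oct4 score of 296 and a Sox2 score of 40.4 at 79 bp. An intergenic pair on chromosome 10, 326868 bp upstream of Dcn, a matrix proteoglycan gene, scored 106 and 32.9 at 4 bp and held a MORE. A pair 46477 bp upstream of Slitrk1, a neuronal membrane protein gene, scored 89.9 and 64.7 at 38 bp and held an AP-1 motif at the window's edge. The Sox21 pair scored 77.4 and 72.7 at 9 bp, the highest Sox2 score of any pair.

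The next pairs were an intron of Nell1 (89.7 and 29.2, with SoxOct), a UTR of Abca8b (96.3 and 27.1, with MORE), a site 38400 bp upstream of Nuf2, a kinetochore gene (64.4 and 29.0, without a motif) and a gene-poor site on chromosome 3 at 43398541 (60.9 and 42.8, at 1 bp, with AP-1). Among these 8 only Sox21 and Nell1 had SoxOct. The 3 pairs with the best SoxOct and highest rank were Gadd45g, whose scores were low (13.2 and 5.54), Sox21 and an intron of Gm34623 on chromosome 8 (40.9 and 16.8).

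The 4 strongest Oct4-alone summits lay in introns of Kremen1 (score 311, MORE), Sort1 (220, MORE) and Nr1h4 (209, SoxOct) and 9620 bp upstream of 5031439G07Rik (212). The Nr1h4 summit had a Sox2 summit 157 bp away, just outside the rule. The strongest Sox2-alone summits were on chromosome 2 in Gm10800 and Gm10801 (77.8 and 64.4, the first 97% repeat-masked), on chromosome 5 at 8489035 (69.8) and on chromosome 1 at 30656597 (65.8, with Oct4 at 155 bp). None of these 4 windows held a motif of the set. The Gm10800 and Gm10801 summits recurred within 100 bp in the Sox2 lists of day 5 of all 3 cocktails, with scores of 37.0 to 86.0. The Gm10800 site also had an Oct4 summit of Oct4-SK day 5 at 4 bp (8.16). At the chromosome 5 site an Oct4defSox2 summit of day 1 lay at 9 bp (18.3). What part repeat sequence has in these summits was not tested.

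A co-bound site lay within 50 kb of a start of 978 of 21827 coding genes, 4.48%. For Oct4-alone sites the figure was 4540 genes, 20.8%, and for Sox2-alone sites 8089 genes, 37.1%, so that gene lists are read against these shares. The site of a listed gene can lie inside another gene or nearer to another start. Of 30 pluripotency genes 2 had a co-bound site (6.67%), Pou5f1 and Tfcp2l1, while 14 (46.7%) had an Oct4-alone and 10 (33.3%) a Sox2-alone site. Pou5f1 encodes Oct4, and Tfcp2l1 is a factor of naive pluripotency. At the upstream site of Pou5f1 the Oct4 score was 44.7 and the Sox2 score 7.34, 41 bp apart. The Tfcp2l1 pair, 49582 bp upstream in an intron of Clasp1, scored 40.3 and 6.22.

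The other Pou5f1 pair stood in the first coding exon, 302 bp downstream of the start, with scores of 17.4 for Oct4 and 28.0 for Sox2. The retroviruses of Oct4-SK carry the Oct4 coding sequence, and the reporter carries Oct4 regulatory DNA. In Oct4-SK, signal of these inserts and of the endogenous gene therefore cannot be told apart at either site. The exon summit was also in the Sox2 lists of Oct6-SK (71.5 on day 1, 33.0 on day 5), where no Oct4 virus was delivered. In the Sox2 lists of Oct4defSox2-SK it scored 32.6 on day 1 and 281 on day 5, and in that of Oct4-SK day 5 it scored 102. The exon pair held the only co-bound Oct4 summit in exons of Pou5f1, Sox2 or Klf4, beside 4 Oct4-alone summits there.

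TGF-beta and BMP signalling genes had co-bound sites at 4 of 28 (14.3%), against 4.48% of all coding genes. The receptor genes among them were Acvr1 (35 and 21.9, with SoxOct, in an intron of Upp2) and Tgfbr1 (19.7 and 4.26, in its own intron, with SoxOct). The others were the signal transducer Smad3 (13.8 and 7.66) and the ligand Tgfb2 (4.71 and 10.8, in a non-coding exon of A430105J06Rik). The Sox2 score of Tgfbr1 and the Oct4 score of Tgfb2 were near the lowest, at percentiles 5.51 and 4.34 of their lists. Sox2-alone sites stood at 16 of these 28 genes (57.1%) and Oct4-alone sites at 4 (14.3%), against 37.1% and 20.8% of all coding genes. Klf-family zinc-finger genes had co-bound sites at 4 of 17 (23.5%): Klf13 (103 and 15.2), Klf12 (63.1 and 11.6, in its intron), Klf9 (10.7 and 7.66, with MORE) and Klf7 (19.4 and 6.09). Oct4-alone and Sox2-alone sites each stood at 6 of these 17 genes (35.3%). Both lists rest on few genes, and no set test was run.

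Genes of the fibroblast state that had a co-bound site nearby had 1 each, read against 4.48% of all coding genes. Of 25 mesenchymal and matrix genes 3 did (12%), while 18 (72.0%) had a Sox2-alone site. The 3 were the collagen gene Col3a1 (58.6 and 9.80), the fibronectin gene Fn1 (7.00 and 25, with single Sox sites) and the vimentin gene Vim (6.88 and 4.82). The Vim pair lay nearer to the start of Trdmt1, and its Sox2 score was at percentile 11.2 of its list. Of 24 mesenchymal transcription factor genes 2 did (8.33%), Runx2 (19.1 and 9.46) and Prrx1 (7.64 and 8.73), and 12 (50.0%) had an Oct4-alone site. None of 16 AP-1 genes did.

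In the other lists the counts were at most 2. They were 1 of 26 epithelial genes, the transcription factor gene Grhl1 (7.49 and 11, in an intron of Taf1b), and 1 of 24 Wnt genes, Tcf7 (19.7 and 6.22). Among 21 FGF and ERK genes 1 had a co-bound site, Fgf5 (8.52 and 5.54), and among 20 housekeeping genes 1 did, the ubiquitin gene Ubb (23.2 and 9.19). Of 19 Sox genes 2 did, Sox21 and Sox13 (11.2 and 19.7), of 14 POU genes Pou5f1 and Pou1f1 (10.5 and 7.00), and of 24 neural progenitor genes Sox21. The housekeeping share of 5.00% was close to the 4.48% of all coding genes.

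Co-bound pairs were spread thinly. Only 72 of 1623 had another pair within 10 kb, and no coding gene had more than 3 pairs within 50 kb of a start. By gene body 593 of 21911 coding genes held a pair, with a median length of 152 kb against 17.4 kb for all. Adgrl3, Cdh18, Pde4d and Zbtb20 held 5 pairs each and are 767 to 1504 kb long. Lgr4, a receptor of the Wnt pathway, and Sdc2, a cell-surface proteoglycan, held 4 pairs each within 96.6 and 114 kb. They held no Oct4-alone summit, and 2 (Lgr4) and 3 (Sdc2) Sox2-alone summits. In Lgr4 the pairs scored 11.4 to 32.4 for Oct4 and 11.6 to 57.9 for Sox2, and none of its 4 windows held SoxOct or MORE.

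In most other libraries co-bound sites recurred more often than unshared ones, counted within 100 bp. The mutant Oct4defSox2 had a summit on day 1 at 74.8% (72.6 to 76.8) of co-bound and 53.2% (52.0 to 54.4) of Oct4-alone Oct4 summits, a difference of 21.5 points (19.1 to 23.9). In the mutant's day 5 library, a list of 1034 summits, the order was the reverse, 3.26% (2.50 to 4.23) against 5.28% (4.77 to 5.85). The S151M mutant, with 101151 summits, was found at 82.4% and 77.3%, a difference of 5.05 points (2.88 to 7.10) that was 1.92 points at equal scores, with an interval that took in 0.

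Sox2 sites recurred more often when co-bound. The Sox2 list of Oct4-SK day 5 held 19.9% (18 to 21.9) of co-bound and 5.71% (5.34 to 6.12) of Sox2-alone summits, a difference of 14.2 points (12.3 to 16.2) that was 8.50 points (6.41 to 10.6) at equal scores and 9.24 points (6.28 to 12.5) with scores of at least 10. The Sox2 list of Oct6-SK day 1, where no Oct4 was delivered, held 16.5% (14.7 to 18.3) of the former and 3.94% (3.63 to 4.28) of the latter, which is 12.5 points apart (10.8 to 14.4). This gap was 8.33 points (6.41 to 10.3) at equal scores, 6.48 points (4.79 to 8.49) with the limit at 50 bp and 4.38 points (2.38 to 6.79) with scores of at least 10. That of Oct4defSox2-SK day 1 held 18% (16.2 to 19.9) and 9.75% (9.27 to 10.3). This difference of 8.24 points became -0.880 points (-3.53 to 2.11) with scores of at least 10 and -1.06 points (-3.14 to 1.03) at equal scores.

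On day 5 Oct4 had a summit at 26.1% (24 to 28.3) of co-bound and 24.2% (23.1 to 25.2) of Oct4-alone sites, a difference of 1.95 points (-0.372 to 4.37), and on day 7 at 14.2% and 12.7%. Its sign and call moved with the settings, from -1.84 points at equal scores to 3.03 points (0.524 to 5.65) with equal numbers of the strongest summits. Of the 1628 co-bound sites 142 (8.72%, 7.45 to 10.2) still had both factors within 100 bp on day 5, 283 only Oct4, 175 only Sox2 and 1028 (63.1%, 60.8 to 65.5) neither. On day 5 as a whole 472 of 4846 Oct4 summits were co-bound, and on day 1 with Oct4defSox2 2711 of 31060 mutant summits.

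**Figure D5:**
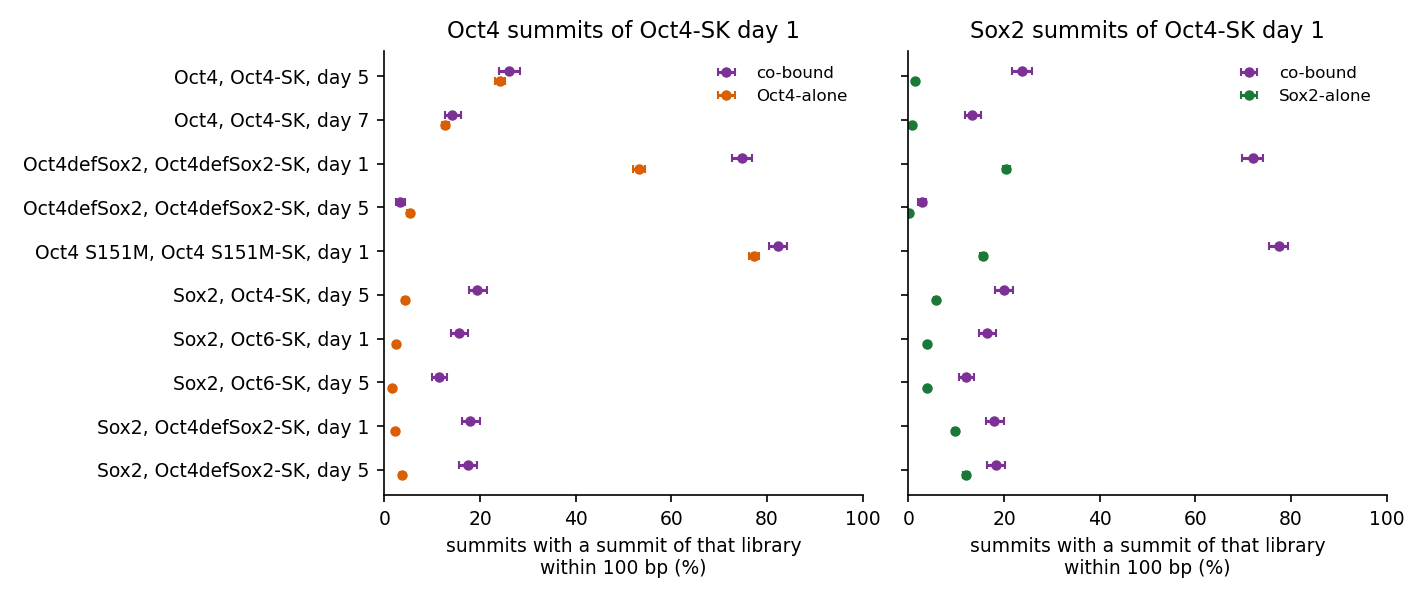
Share of Oct4 summits (left) and Sox2 summits (right) of Oct4-SK day 1 with a summit of each other library within 100 bp, for co-bound summits and those alone, with 95% Wilson intervals as bars. Oct4defSox2 on day 1 lies at 74.8% of co-bound and 53.2% of Oct4-alone sites, while Oct4 on day 5 lies at 26.1% and 24.2%.

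The share of sites with Oct4 on later days differed by motif. Among co-bound sites with SoxOct 47.5% (41.6 to 53.3) had Oct4 on day 5 and 35.5% (30.1 to 41.3) on day 7. Among Oct4-alone sites with SoxOct these were 37.6% (34.6 to 40.7) and 28.8% (26 to 31.7). With MORE and no SoxOct they were 36.8% (26.9 to 48.1) and 11.8% (6.36 to 21) over 76 co-bound sites, and 46.0% (42.3 to 49.7) and 18.2% (15.5 to 21.2) over 709 Oct4-alone sites. Without a POU motif they were 20.6% (18.4 to 23.0) and 9.17% (7.66 to 10.9) when co-bound, and 18.3% (17.2 to 19.4) and 8.59% (7.82 to 9.44) when Oct4-alone. These subgroups differ in score too, and its part was not tested.

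At sites with SoxOct the mutant's day 1 list also split by group. Oct4defSox2 on day 1 lay at 81.5% (76.5 to 85.7) of co-bound and 60.4% (57.3 to 63.5) of Oct4-alone sites with SoxOct. At MORE sites without SoxOct Oct4defSox2 had a day 5 summit at 22.7% (19.8 to 25.9) of 709 Oct4-alone and 10.5% (5.43 to 19.4) of 76 co-bound sites.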

How the data were processed

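ChIP-seq summit lists of 12 libraries were used, with 1 library per group, of 16 samples in the series. The authors aligned paired-end reads to mm10 with Bowtie2 2.2.5, removed low-quality alignments and duplicates with samtools and called peaks per library with MACS2. Whether an input served as control is not given in the sources used here. The deposited score is the −log10 p-value of each summit, not scaled between libraries, so scores were compared within a list. Read depth is not given by these files and was not used.

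Summits off chromosomes 1 to 19, X and Y (17 Oct4 and 3 Sox2) were dropped. Sequence came from GRCm38 (mm10 coordinates) and genes from GENCODE M21. Nearest summits, motif shares, distances and overlaps were computed in Python 3.11.15 with pandas 2.3.3, scipy 1.17.1 and pysam 0.24.0. Shares have Wilson, differences Newcombe and medians order-statistic 95% intervals, and the scripts were tested on simulated data. Several summits can share a peak (513 Oct4 and 448 Sox2 summits did). The members and gene lists were chosen with earlier results of these data known. Named sites were the 8 pairs with the highest lower score percentile, the 4 strongest Oct4-alone and Sox2-alone summits, the 3 pairs with the best SoxOct, and genes of 13 lists within 50 kb of a pair. The upstream Pou5f1 pair, Lgr4 and Sdc2 were chosen after their values were seen. The alternatives were other distance limits, score minimums, summit choices, motif settings and gene windows.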

Additional observations from a re-analysis of the deposited data

How the results depend on the processing

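Of 195 values recomputed under alternatives, 154 kept their direction and side of 0, or their range. SoxOct against Sox2-alone stayed at 1.88 to 32.1 points, MORE against Oct4-alone at -8.64 to -2.13, single Sox against Oct4-alone at 5.63 to 10.5, Sox2 on day 5 at 8.50 to 14.9, Sox2 of Oct6-SK at 4.38 to 15.0, and Oct4defSox2 on day 1 at 15.0 to 24.7. The directions of SoxOct against Sox2-alone and of single Sox against Oct4-alone follow from the grouping rule, so their stability is not a test of it. No paired analysis was possible because each group had 1 library. The cause of the changes below was not tested. Values are percentage points, co-bound minus alone, unless given as shares. With the limit at 50 bp the co-bound shares were 11.5% (Oct4) and 6.18% (Sox2), the spacing 25 bp, the gene count 568, SoxOct against Oct4-alone 2.42, promoters against Oct4-alone -1.47, and AP-1 -1.01 against Oct4-alone and 0.792 against Sox2-alone. At 250 bp they were 28.7%, 15.2% and 62 bp, with SoxOct 0.283, KLF against Sox2-alone 0.202 and Oct4 on day 5 2.35. With scores of at least 10 the shares were 14.6% and 15.4%, the gene count 414, single Sox against Sox2-alone -2.20, AP-1 against Sox2-alone -3.34 (-5.72 to -0.606), promoters against Oct4-alone -1.52, Oct4 on day 5 -0.144 and Sox2 of Oct4defSox2-SK -0.880. With equal numbers of summits the shares were 16.7% and 16.6%, single Sox 2.26, AP-1 -0.360 and Oct4 on day 5 3.03. At equal scores SoxOct against Oct4-alone was 1.68, single Sox against Sox2-alone 0.938 (an alternative added after seeing the data), AP-1 against Sox2-alone -0.839, Oct4 on day 5 -1.84 and Sox2 of Oct4defSox2-SK -1.06. SoxOct with up to 1 mismatch gave 0.387. In windows of 50 bp to each side AP-1 was -0.0846 against Oct4-alone and 0.441 against Sox2-alone. Gene windows of 20 and 100 kb gave 403 and 1845 genes.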
